A study of Homo sapiens with 6 samples.

Results

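The AP-1 transcription factor genes JUN, JUNB, JUND, FOS, FOSB, FOSL1, FOSL2, BATF, BATF3 and JDP2 were followed in MV4;11 cells, an established human line of acute myeloid leukemia with the FLT3-ITD mutation, a tandem duplication inside the FLT3 receptor gene, and with the fusion gene MLL-AF4. The members were taken by gene symbol, and all 10 had a row among the 21857 genes of the deposited tables. RNA sequencing covered 3 libraries of cells given 10 µg/ml flavokawain A (FKA), a chalcone of the kava plant, for 48 h, and 3 libraries of control cells without FKA. Both groups carry the FLT3 and MLL lesions and were grown in RPMI medium with fetal bovine serum. The labels name no vehicle for the controls, and they put 1 FKA and 1 control library in each of 3 batches. The data describe a single cell line at a single dose and time, and nothing in the labels says that the libraries of a group came from separate cultures, so p-values measure only the spread between these libraries.

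AP-1 is a family of dimers. JUN proteins pair with one another or with FOS proteins through a leucine zipper, and the pair binds the TPA response element or the closely related cyclic AMP response element in DNA. BATF proteins and JDP2 lack the activation domains of FOS and pair with JUN proteins, so that dimers holding them often repress, or act together with IRF factors in immune cells. In myeloid cells AP-1 is known for its part in the response to growth factors and stress and in monocyte differentiation, and FOS and JUN are textbook immediate early genes whose transcripts come and go within hours of a stimulus.

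The libraries held between 29971171 and 33183376 counted reads with FKA and between 33759185 and 36362421 in controls. Myeloid genes identified the cells in both groups: the 12 markers listed for the line summed to 2391 to 2492 CPM with FKA and 2119 to 2220 CPM in controls (CSF3R, ITGAM, CD68 and MEIS1 called higher with FKA, MPO and HOXA9 lower, 6 not called), where CPM are read counts scaled to library size with edgeR's TMM factors (a correction for differences in RNA composition). Reads of mesenchymal genes were few and uneven, and COL1A1 had 11, 417 and 449 reads in FKA libraries 1 to 3, against 75, 82 and 4 in control libraries 1 to 3. The most abundant of the listed markers, ACTA2, averaged 22.8 ± 2.30 CPM with FKA and 29.6 ± 8.32 CPM in controls. ACTA2 was the only tested marker of this list with a negative log2 fold change (FKA minus control), at -0.37. The median log2 fold change of the 8 tested markers was 2.13, so most of the list went the other way. The 13 mesenchymal markers summed to 23.8 to 83.1 CPM with FKA and 23.8 to 48.9 CPM in controls, and none of the 13 was at 0 in all libraries. By edgeR 0 of the 8 tested ones were called and 3 had an unadjusted p under 0.05, while DESeq2 called 1 and limma 0. Their part in the results below was not tested, but each member was also fitted without FKA replicates 2 and 3, the libraries with the most COL1A1 reads.

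AP-1 transcripts moved in both directions under FKA. FOS and JUNB rose, BATF3, JUN, FOSL1, JDP2, FOSL2 and JUND fell, FOSB did not pass the test, and BATF had too few reads to be tested. Calls are adjusted p-values under 0.05 from edgeR's quasi-likelihood test with Benjamini-Hochberg adjustment over 13531 genes. In that test 59.8% of all genes were called, 29.3% higher and 30.5% lower with FKA, and among the 9 tested members 2 were higher and 6 lower. The median log2 fold change (FKA minus control) of the 9 tested members was -0.77, beside 0.01 over all tested genes. FKA and control libraries were fully separated in 8 of the 9 members, 2 with FKA higher and 6 with FKA lower, beside 67.3% of tested genes as a whole (33.7% with FKA higher and 33.6% lower). Many genes were called, and whether these counts set the family apart was not tested. With batch as a replicate block 61.3% of genes were called, and again 2 members higher and 6 lower. Without FKA replicates 2 and 3, 32.3% of genes were called, with 1 member higher (FOS) and 5 lower. In bulk RNA, fewer cells that hold a transcript and less of it per cell cannot be told apart.

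**Figure D1:**
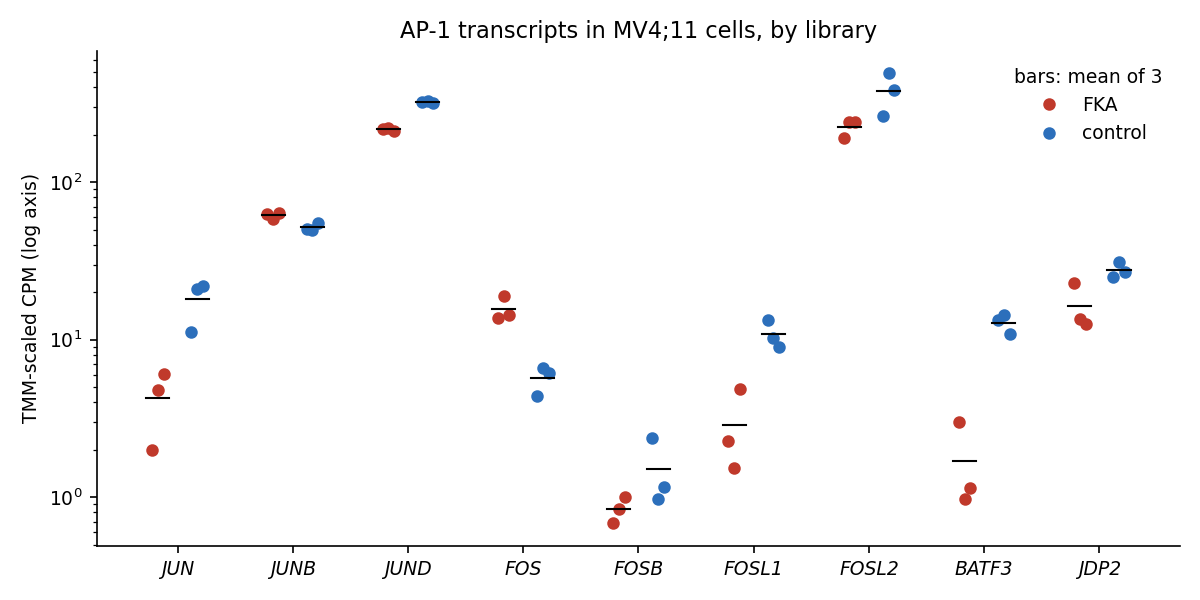
TMM-scaled CPM of the 9 tested AP-1 transcripts on a log axis, with 1 point per library and a bar at the mean of 3 libraries. FKA points lie above all control points for FOS and JUNB and below all control points for JUN, JUND, FOSL1, FOSL2, BATF3 and JDP2, and the groups overlap for FOSB.

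JUN, the founding member and the usual partner of FOS, fell. It had 1.99, 4.78 and 6.07 CPM in FKA libraries 1 to 3, against 11.2, 20.8 and 22.0 CPM in control libraries 1 to 3. All FKA libraries lay below all controls, and within each group the library of batch 1 was the lowest. JUN averaged 4.28 ± 2.09 CPM with FKA and 18.0 ± 5.94 CPM in controls (SD, n = 3 each, used for all means below), a 4.2-fold lower level (log2 fold change -2.07, SE 0.390, 95% interval -2.95 to -1.19, edgeR adjusted p = 0.00173). JUN was lower with FKA in every batch, by log2 differences of -2.48, -2.12 and -1.85 in batches 1 to 3. Without FKA replicates 2 and 3 the value was -3.19, and without FKA replicate 1 it was -1.73.

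JUNB, a JUN relative that can oppose JUN in proliferation, rose slightly. It had 63.1, 58.3 and 63.4 CPM with FKA and 50.4, 49.5 and 55.2 CPM in controls. The FKA libraries were all higher, by a margin of a few CPM over the highest control. The 1.19-fold rise (log2 fold change 0.25, SE 0.0891, 95% interval 0.05 to 0.45, edgeR adjusted p = 0.0349) was found in each batch, at 0.32, 0.24 and 0.20. It missed the threshold in 4 of the 6 fits that left out 1 library (edgeR adjusted p = 0.108 without FKA replicate 1, 0.107 without FKA replicate 3, 0.0662 without control replicate 1 and 0.112 without control replicate 2), and without FKA replicates 2 and 3 (edgeR adjusted p = 0.21). In the GENCODE 29 annotation JUNB overlaps HOOK2 on the opposite strand. HOOK2 had 591, 763 and 687 reads with FKA and 358, 633 and 417 in controls and was called higher (log2 fold change 0.57, edgeR adjusted p = 0.0246), against 2030, 1866 and 2203 reads of JUNB with FKA and 1565, 1772 and 1857 in controls. Since no use of strand is stated, reads of JUNB and HOOK2 cannot be told apart where exons of both genes overlap. Only the spans of the genes were compared, not their exons.

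JUND, the JUN protein most abundant in resting cells, fell with little spread. It had 217, 222 and 213 CPM with FKA, against 321, 327 and 319.6 CPM in controls. The 3 libraries of each group lay within a few percent of one another, and the groups were well apart. The 1.49-fold lower level (log2 fold change -0.57, SE 0.0805, edgeR adjusted p = 0.000351) was nearly the same in the 3 batches, at -0.57, -0.56 and -0.59.

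FOS, which needs a JUN partner to bind DNA, rose. It had 13.7, 18.9 and 14.4 CPM with FKA, against 4.41, 6.65 and 6.16 CPM in controls. Even the lowest FKA library lay above the highest control, and the library of batch 2 was the highest of each group. FOS averaged 15.7 ± 2.80 CPM with FKA and 5.74 ± 1.18 CPM in controls, 2.72-fold higher (log2 fold change 1.45, SE 0.202, 95% interval 0.99 to 1.90, edgeR adjusted p = 0.000339), with 1.64, 1.50 and 1.22 in batches 1 to 3. Without FKA replicates 2 and 3 its log2 fold change was 1.25 (edgeR adjusted p = 0.0116).

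The start regions of the JUN genes and of FOS are shown because these relatives moved in opposite directions. They are the 250 bases before each gene's start in RefSeq (GRCh38.p14), at chr1:58784048-58784297 on the minus strand for JUN, chr19:12791236-12791485 on the plus strand for JUNB, chr19:18281623-18281872 on the minus strand for JUND and chr14:75278578-75278827 on the plus strand for FOS. For the counts the submitters' processing notes name mouse builds (GRCm38 and mm10), although the symbols are human, so the coordinates belong to RefSeq alone. Capitals mark matches, on either strand, to the TPA response element TGACTCA, the cyclic AMP response element TGACGTCA and its core TGACGT, the JUN elements known as proximal (TGACATCA) and distal (TTACCTCA), the TATA box TATAAA, the CCAAT box and the MEF2 consensus. The full cyclic AMP response element holds its core on both strands.
JUN: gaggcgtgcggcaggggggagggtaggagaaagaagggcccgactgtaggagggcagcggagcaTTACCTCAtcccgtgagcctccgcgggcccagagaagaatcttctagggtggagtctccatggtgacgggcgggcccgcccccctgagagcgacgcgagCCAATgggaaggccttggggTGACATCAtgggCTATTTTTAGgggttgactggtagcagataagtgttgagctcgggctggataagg
JUNB: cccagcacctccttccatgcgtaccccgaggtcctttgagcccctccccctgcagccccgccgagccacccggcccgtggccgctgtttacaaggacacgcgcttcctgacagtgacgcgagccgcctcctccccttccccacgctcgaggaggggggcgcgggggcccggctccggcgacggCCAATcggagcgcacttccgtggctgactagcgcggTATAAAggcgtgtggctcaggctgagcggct
JUND: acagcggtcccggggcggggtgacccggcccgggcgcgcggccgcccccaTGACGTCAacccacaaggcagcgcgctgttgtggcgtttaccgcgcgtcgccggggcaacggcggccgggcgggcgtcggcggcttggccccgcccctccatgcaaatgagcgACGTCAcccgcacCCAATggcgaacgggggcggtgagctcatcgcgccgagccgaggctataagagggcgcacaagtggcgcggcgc
FOS: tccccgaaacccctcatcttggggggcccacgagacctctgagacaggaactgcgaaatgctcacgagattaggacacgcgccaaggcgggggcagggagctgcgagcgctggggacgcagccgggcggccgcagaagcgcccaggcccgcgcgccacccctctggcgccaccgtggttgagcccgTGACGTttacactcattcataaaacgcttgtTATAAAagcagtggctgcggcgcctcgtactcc

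Counting back from -1 at the base before the start, the JUN window held TTACCTCA from -186 to -179 and TGACATCA from -67 to -60, the textbook elements through which JUN and ATF2 act on the JUN gene itself. It also held a match to the MEF2 consensus, a known site of this promoter, from -55 to -46. These 3 motifs occur in 0.644%, 2.37% and 0.515% of all 35116 RefSeq windows of this length. The FOS window held the cyclic AMP response core TGACGT from -64 to -59, which 7.10% of windows hold, and TATAAA from -33 to -28 (10.7% of windows). The JUND window held the full element TGACGTCA from -200 to -193 (1.65% of windows), and a further TGACGT on the other strand from -87 to -82. JUNB held TATAAA from -31 to -26 and CCAAT from -67 to -63 (32.0% of windows). CCAAT was also found in the JUN and JUND windows, and TGACGT in those of FOSL2, FOSB and JDP2. Windows were available for 8 of the 10 members, which leaves out FOSL1 and BATF3, and TGACTCA was in none of these windows, as against 4.2% of all. These are matches of letters, and nothing about binding was measured.

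The other FOS genes did not follow FOS. FOSL2, the FOS relative most abundant in these cells, had 190.3, 240.4 and 240.2 CPM with FKA, against 262, 492 and 383 CPM in controls. All FKA libraries lay below all controls, and the controls themselves spread widely, with replicate 1 close to the FKA libraries. That separation rested on the TMM scaling, since in FPKM, which are scaled by library totals, FKA replicates 2 (29.2) and 3 (28.6) lay above control replicate 1 (27.5). FOSL2 was 1.70-fold lower (log2 fold change -0.76, SE 0.206, 95% interval -1.23 to -0.29, edgeR adjusted p = 0.0111), with -0.46, -1.03 and -0.67 in batches 1 to 3. It was not called by limma on log2(FPKM + 1), where its difference was -0.55 (adjusted p = 0.0734).

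FOSL1, a FOS relative that ERK signaling induces and stabilizes, had 2.27, 1.53 and 4.83 CPM with FKA, against 13.3, 10.3 and 8.95 CPM in controls. The groups did not overlap, and FKA replicate 3 was the highest of its group. The 3.74-fold lower level (log2 fold change -1.90, SE 0.375, edgeR adjusted p = 0.00217) stood at -2.54, -2.73 and -0.89 in batches 1 to 3. The fitted value was -2.51 without FKA replicate 3, -1.60 without FKA replicate 2 and -2.26 without FKA replicates 2 and 3. FOSB, an immediate early gene like FOS, had 22, 27 and 35 reads with FKA and 74, 35 and 39 in controls. Its groups overlapped and it was not called (log2 fold change -0.82, SE 0.400, 95% interval -1.73 to 0.08, edgeR adjusted p = 0.103), and without control replicate 1 the value was -0.34. FOSB overlaps ERCC1 on the opposite strand in GENCODE 29, and ERCC1 had 2688 to 3048 reads with FKA and 2445 to 2508 in controls. Reads of FOSB and ERCC1 cannot be told apart either where exons of both genes overlap, and exons were not compared.

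BATF3, which works with IRF8 in dendritic cell development, had the largest fold change of the tested members. It had 2.98, 0.969 and 1.15 CPM with FKA, against 13.3, 14.3 and 10.8 CPM in controls, from 96, 31 and 40 reads with FKA and 413, 511 and 364 in controls. All FKA libraries were far below the controls, and FKA replicate 1 was the highest of its group. The level was 7.53-fold lower (log2 fold change -2.91, SE 0.379, 95% interval -3.77 to -2.05, edgeR adjusted p = 0.00023), which ranked 357 among the falls of the 13531 tested genes. In batches 1 to 3 it was -2.15, -3.86 and -3.22. The fitted value was -3.59 without FKA replicate 1, -2.63 without FKA replicate 2 and -2.11 without FKA replicates 2 and 3.

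JDP2, a repressor of AP-1 that pairs with JUN proteins, had 22.8, 13.4 and 12.6 CPM with FKA, against 24.9, 31.3 and 26.8 CPM in controls. FKA replicate 1 lay just under the lowest control, and the other two FKA libraries were well below. In FPKM it lay above that control (1.90 against 1.81). The fitted level was 1.70-fold lower (log2 fold change -0.77, SE 0.220, edgeR adjusted p = 0.0147), but the difference in batch 1 was only -0.13, beside -1.22 and -1.09 in batches 2 and 3. Without FKA replicate 2 the call was lost (-0.64, edgeR adjusted p = 0.0513). Without FKA replicates 2 and 3 the value was -0.29 (edgeR adjusted p = 0.302). BATF, which drives T cell programs, had 0, 0 and 0 reads with FKA and 2, 1 and 3 in controls. Set against a floor of 3 reads over the FKA group, that comes to 1.97-fold lower, a figure that leaves out the counting noise of 6 control reads. The main fit did not test BATF, and in the fit with no filter BATF was not called.

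**Figure D2:**
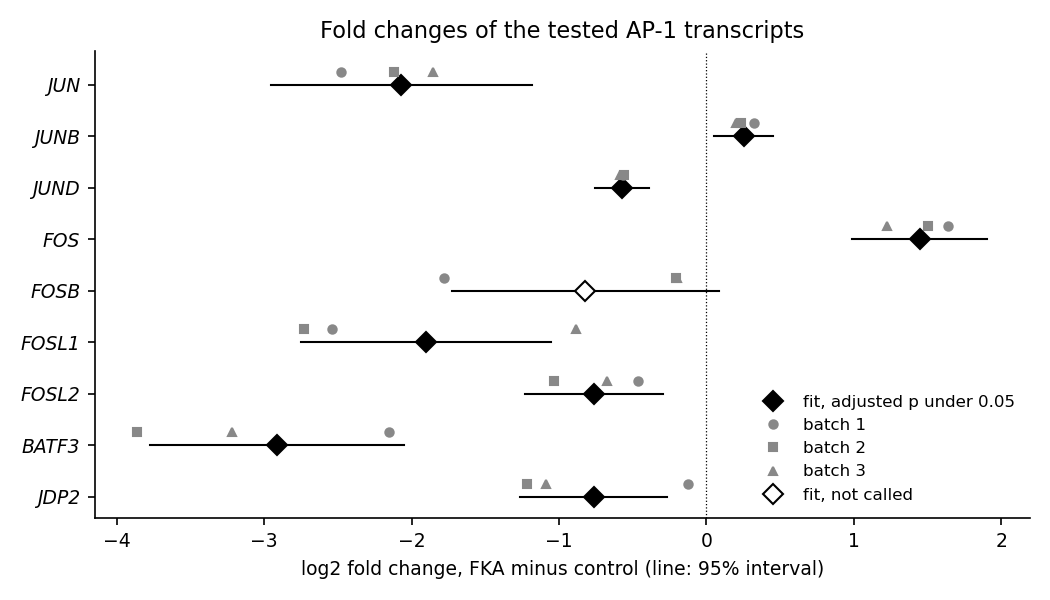
Fitted log2 fold change (FKA minus control) of each tested member as a diamond with its 95% interval, and the difference within each of the 3 batches as grey symbols. FOS and JUNB lie to the right of 0 and the other called members to the left, and the batch values spread most for FOSB, FOSL1, BATF3 and JDP2.

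The order of abundance within the family shifted. FPKM, which also divide by gene length, were used to compare levels between genes. With FKA, JUND led at 119 ± 3.71 FPKM, followed by JUNB at 35.5 ± 1.31, FOSL2 at 26.9 ± 3.53 and FOS at 7.87 ± 1.48 FPKM. Next came FOSL1 at 1.78 ± 1.06, BATF3 at 1.42 ± 0.927, JUN at 1.39 ± 0.673 and JDP2 at 1.36 ± 0.469 FPKM, a group of 4 whose values overlapped, and FOSB at 0.236 ± 0.0444 FPKM. In controls the order was JUND at 158 ± 7.59, FOSL2 at 41.1 ± 13.8, JUNB at 26.7 ± 1.43, BATF3 at 9.61 ± 1.56, FOSL1 at 6.00 ± 1.13, JUN at 5.25 ± 1.82, FOS at 2.59 ± 0.604, JDP2 at 2.08 ± 0.322 and FOSB at 0.374 ± 0.179 FPKM. Among the controls the neighbours FOSL2 and JUNB, FOSL1 and JUN, and FOS and JDP2 overlapped. By mean FPKM FOS ranked 4 among the 10 members with FKA and 7 in controls.

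Shares of the summed FPKM show the make-up of each branch of the family without any scaling between libraries. JUND held 76.2%, 77.5% and 75.1% of the 3 JUN genes with FKA, against 84.3%, 83.5% and 81.8% in controls. JUNB held 23.4%, 21.5% and 23.6% with FKA, against 13.9%, 13.3% and 14.9% in controls. JUN itself held 0.414%, 0.989% and 1.27% with FKA, against 1.74%, 3.15% and 3.33% in controls. The groups did not overlap in any of these 3 shares. The 3 shares are parts of one whole in each library, so these separations are not independent. Of all tested genes 67.3% were fully separated in CPM. The share of JUND was 6.91 percentage points lower with FKA on average, with -8.10, -6.00 and -6.64 points in batches 1 to 3.

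Among the 4 FOS genes, FOS held 22.0%, 24.0% and 18.3% with FKA, against 5.19%, 4.83% and 5.63% in controls. FOSL2 held 72.9%, 73.0% and 73.3% with FKA, against 74.0%, 85.6% and 83.7% in controls, so that control replicate 1 was close to the FKA libraries. FOSL1 held 4.49%, 2.40% and 7.62% with FKA, against 19.3%, 9.20% and 10.1% in controls. The ratio of FOS to JUN per length, a quantity free of scaling, had log2 values of 3.42, 2.61 and 1.88 with FKA, against -0.71, -1.02 and -1.21 in controls. FOS was above JUN in every FKA library and below it in every control, and the mean ratio was 12.2-fold higher with FKA.

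**Figure D3:**
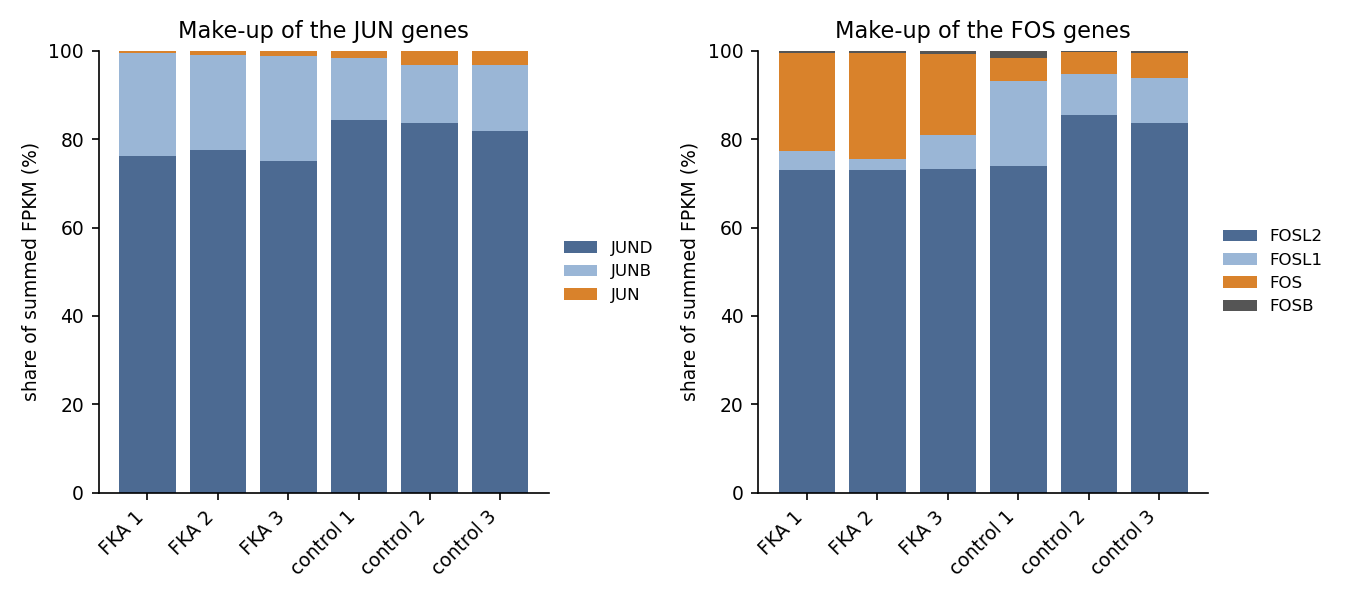
Share of the summed FPKM held by each of the 3 JUN genes (left) and the 4 FOS genes (right), in percent, with 1 stacked bar per library. The JUNB part is wider and the JUN part thinner in the 3 FKA bars than in the controls, and the FOS part takes 18.3% to 24.0% of the FKA bars against 4.83% to 5.63% of the control bars.

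FOS, JDP2 and BATF lie within 268 kb of chromosome 14 (chr14:75278828-75546992, GRCh38.p14 in RefSeq). There FOS rose, JDP2 was called lower and BATF had at most 3 reads in a library. JUNB, JUND and FOSB are all on chromosome 19, and moved up, down and not past the threshold. The antisense rows of the table held few reads. JDP2-AS1 had 26, 28 and 9 reads with FKA and 14, 33 and 30 in controls and was not called. FOSL2-AS1 had 6, 1 and 1 reads with FKA and 1, 0 and 0 in controls and was not tested.

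The genes whose log2 CPM over the 6 libraries were most like those of JUN, among 8949 genes with a mean of at least 10 CPM, were DYM (Pearson r = 0.996), GOT2 (0.989) and FADD (0.989). DYM averaged 93.7 ± 7.09 CPM with FKA and 121 ± 6.64 CPM in controls (log2 fold change -0.36, edgeR adjusted p = 0.00709). Those most like FOS were TSPAN31 (r = 0.999), TRAPPC2 (0.999) and CDK5 (0.999). TSPAN31 had 58.4, 84.1 and 60.3 CPM with FKA, against 14.7, 22.2 and 22.0 CPM in controls. These values hold the difference between the groups, and the libraries share their depth and batch with both genes of a pair.

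Proteins that can pair with AP-1 members, or act together with their dimers as IRF factors do, also had transcripts that moved both ways. Of 25 genes listed as dimer partners, IRF4 and IRF8 included, 18 were tested, 11 fell, 3 rose and 4 were not called (median log2 fold change -0.69, 77.8% called). Of all tested genes 59.8% were called, and 30.5% were called lower. ATF5 (log2 fold change -2.64), ATF3 (-2.20), the hematopoietic factor NFE2 (-1.89) and the stress factor DDIT3 (-1.49) fell most among partners with at least 50 reads on average in the higher group. ATF3, which pairs with JUN and is induced by stress, had 4.19, 4.22 and 3.42 CPM with FKA, against 13.9, 23.1 and 17.5 CPM in controls (SE 0.213, edgeR adjusted p = 4.95e-05). The partners that rose were BACH1, a heme-binding repressor (0.96, SE 0.0866, edgeR adjusted p = 3.36e-05), ATF7 (0.37) and the small MAF protein MAFG (0.30). The calls of ATF7 and MAFG were each lost in several fits that left out 1 library, among them those without FKA replicate 2 for ATF7 (edgeR adjusted p = 0.0736) and without FKA replicate 3 for MAFG (edgeR adjusted p = 0.0956). Of the IRF factors on the list, IRF8 fell (-0.67, edgeR adjusted p = 0.00356), while IRF4 had too few reads to be tested.

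Kinases upstream of AP-1 formed the next list. Of 25 listed genes of the MAP kinase cascades 24 were tested, of which 7 rose, 2 fell and 15 were not called (median 0.10, 37.5% called, against 59.8% of all tested genes). The p38 kinase MAPK13 rose, at a low level, with 5.75, 8.50 and 8.80 CPM with FKA and 1.25, 1.20 and 0.922 CPM in controls (log2 fold change 2.77, SE 0.251, edgeR adjusted p = 3.56e-05). MAPK7 (ERK5), which activates MEF2 factors, rose by 0.83, MAP2K1 (MEK1) by 0.64 and MAP2K3 by 0.61. The falls were MAPK12 (-0.37) and RPS6KA1 (-0.27). MAP2K3 and RPS6KA1 each lost the call in fits that left out 1 library (highest edgeR adjusted p = 0.0754 and 0.0917). Of the JUN N-terminal kinases, MAPK8 stood at 0.00 (edgeR adjusted p = 0.978) and MAPK9 at 0.04 (edgeR adjusted p = 0.726), and MAPK10 was too low to test. These counts depended on scaling: with library totals alone, edgeR called 11 higher and 0 lower (0 lower also at an unadjusted p under 0.05). The median of all genes was then 0.17. By adjusted p, DESeq2 with its own scaling called 2 lower, and limma on log2(FPKM + 1) called 1 lower.

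Of 20 listed regulators of JUN and FOS, all tested, 2 rose, 6 fell and 12 were not called (median -0.01, 40.0% called, against 59.8% of all tested genes). This split depended on scaling: with library totals alone edgeR called 4 higher and 3 lower, and each of the 3 limma fits on log2 FPKM called 3 higher and 3 lower. SRF, which drives FOS through the serum response element, fell to 63.9 ± 4.94 CPM with FKA, against 85.3 ± 2.84 CPM in controls (log2 fold change -0.42, SE 0.0888, edgeR adjusted p = 0.00331), and its cofactor ELK3 (0.99) and the deacetylase HDAC3 (0.26) rose. HDAC3 and TRIB1 each lost the call in fits that left out 1 library (highest edgeR adjusted p = 0.0783 and 0.0608). MEF2D, a MEF2 factor, fell (-0.74, edgeR adjusted p = 0.000903), as did the SUMO protease SENP1 (-0.93) and the pseudokinase TRIB1 (-0.56), whereas MEF2A (-0.05) and MEF2C (0.04) were not called. FBXW7 and COP1, ubiquitin ligase parts that target JUN protein, stood at 0.05 and 0.02 and were not called. Protein levels and phosphorylation, through which much of AP-1 control acts, were not measured.

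Other immediate early genes moved both ways. Of 30 listed genes outside the family, 27 were tested, of which 7 rose, 10 fell and 10 were not called (median -0.18). The 63.0% called is near the 59.8% of all tested genes and is no result about the list. BTG2 (log2 fold change 1.61), IER3 (1.45), the RNA-decay factor ZFP36 (0.97) and IER5 (0.92) rose, as FOS did. MYC (-3.04), the nuclear receptor NR4A1 (-2.67), ATF3 (-2.20) and the phosphatase DUSP2 (-2.01) fell, as JUN did. NR4A1 had 29, 15 and 15 reads with FKA, against 141, 129 and 112 in controls. EGR1, which serum induces through the same element as FOS, had 10, 37 and 20 reads with FKA and 15, 16 and 24 in controls and was not called (0.31, edgeR adjusted p = 0.613).

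Of 28 genes listed as AP-1 targets in various cell types, 27 had a row and 18 were tested, of which 7 rose, 5 fell and 6 were not called (median 0.27, 66.7% called, against 59.8% of all tested genes). With library totals alone 9 were higher and 3 lower. The integrin ITGAX rose (1.12), as did the protease inhibitor TIMP1, with 94.3 ± 9.52 CPM with FKA and 50.2 ± 5.06 CPM in controls (0.91, SE 0.110, edgeR adjusted p = 0.000154), and DMTF1 (0.71). The chromatin protein HMGA1 fell (-1.86, SE 0.107, edgeR adjusted p = 5.05e-06), as did the urokinase gene PLAU (-0.72), VEGFA (-0.71) and HBEGF (-0.47). The cytokine targets IL1B, CXCL8, IL6 and CSF2 and the collagenase MMP1 had too few reads to be tested. Of the other cytokines listed, TNF was tested and not called (-0.46, edgeR adjusted p = 0.298). TGFB1 was called higher (0.63, edgeR adjusted p = 0.00349).

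**Figure D4:**
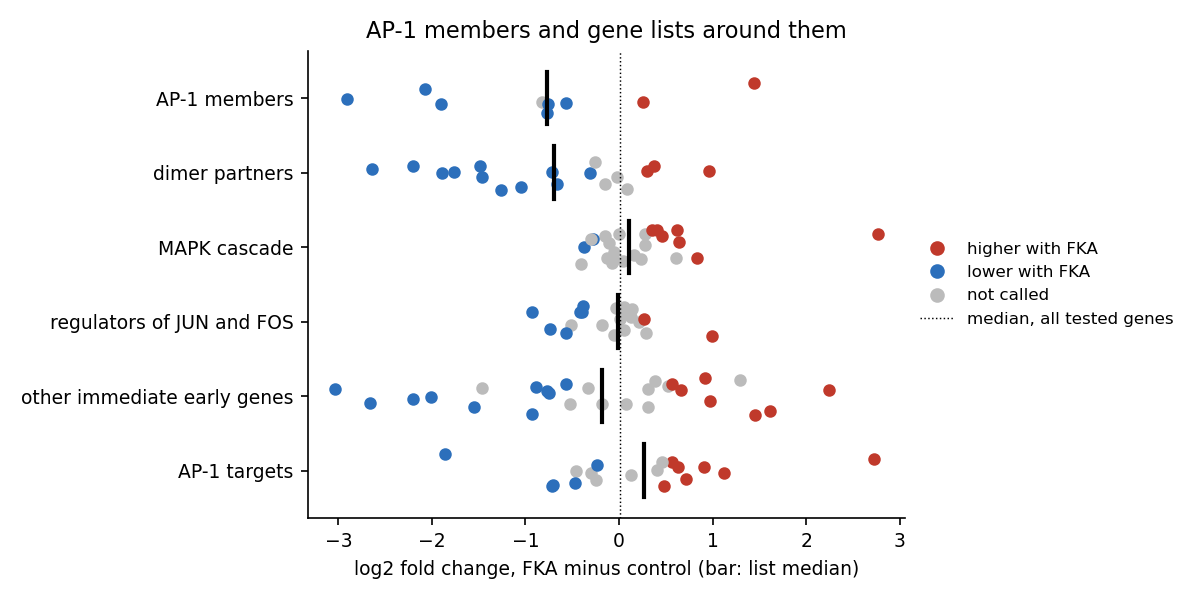
Log2 fold change (FKA minus control) of each tested gene in the AP-1 family and in 5 lists around it, with red points for genes called higher, blue for lower and grey for not called, a bar at each list's median and a dotted line at the median of all tested genes. The medians of the AP-1 members (-0.77) and of the dimer partners (-0.69) lie lowest, and every list holds genes of both directions.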

How the data were processed

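The 6 libraries were grouped by title. The authors deposited whole-number read counts and FPKM for 21857 genes. The deposited FPKM equalled count over column total and 1 length per gene (largest relative deviation 6.9e-07). Builds named in the submitters' processing notes are GRCm38 and mm10, which are mouse builds, although the symbols are human. Aligner, counter, annotation and strand: not given in the sources used here.

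Counts were filtered with filterByExpr (13531 genes, at least 99.94% of reads per library), TMM-scaled and tested in R 4.3.3 with edgeR 4.0.16 (quasi-likelihood test, Benjamini-Hochberg adjustment over the kept genes), also tested on simulated data. SE are the log2 fold change over the root of F. Batch differences are of log2 CPM with 0.5 reads added. Replicate pairs differed beyond sampling noise (chi-square per degree of freedom 21.7 to 66.3).

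By the labels each batch holds 1 FKA and 1 control library, which pairs them. Deviations from group means correlated at 0.11, 0.42 and -0.08 within batches 1 to 3. Batch entered as a block in an alternative fit.

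Members and lists were chosen with earlier results of these data known. All members are named, and from each list at most 4 called genes each way by size of change, with a mean of at least 50 reads in the higher group. One gene that this rule names is not reported here. Seen first and then named were IRF8, IRF4, MAPK8 to MAPK10, MEF2A, MEF2C, FBXW7, COP1, EGR1, COL1A1, TNF, TGFB1 and the untested targets. The 6 epithelial markers (KRT18 called lower) summed to 13.2 to 19.0 CPM with FKA and 19.2 to 22.0 CPM in controls. Lymphoid markers, nearly all NKG7 (called lower), summed to 9.44 to 10.2 CPM with FKA and 21.8 to 24.8 CPM in controls. The 2 erythroid and megakaryocyte markers with a row (GP9 not called) summed to at most 0.594 CPM with FKA and 1.09 CPM in controls. Their part in the results was not tested. Alternatives were upper-quartile and RLE factors, library totals without factors, all genes unfiltered, at least 1 CPM in 3 libraries, DESeq2 1.42.0, the block, limma 3.58.1 on log2 FPKM (pseudocount 1, also with a minimum mean of 1 FPKM, or 0.1), and fits without 1 library or without FKA replicates 2 and 3. Promoters came from RefSeq, and gene overlaps from GENCODE 29.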

Additional observations from a re-analysis of the deposited data

How the results depend on the processing

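No tested member changed direction in any of 17 alternatives, and 138 of 152 pairs of member and alternative kept direction and call. The replicate block changed no member's call (JUN -2.13, BATF3 -3.02) and gave 4066 higher and 4223 lower genes overall. JUNB lost its call with no filter (0.21, edgeR adjusted p = 0.125), leaving FOS as the 1 member higher, and without FKA replicates 2 and 3 (0.28). FOSL2 and JDP2 lost theirs by limma, at -0.55 and -0.40 on log2(FPKM + 1), with or without a minimum mean FPKM of 1, and at -0.56 and -0.61 on log2(FPKM + 0.1). JDP2 also lost it without FKA replicates 2 and 3 (-0.29). Without single libraries JUNB ranged from 0.21 to 0.29 and JDP2 from -1.09 to -0.61, members called higher from 1 to 2, MAP kinase genes called lower from 1 to 4 and regulators called higher from 1 to 2.

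Without FKA replicates 2 and 3, where 1 FKA library is assumed to vary like the controls, edgeR called 2020 genes higher and 2599 lower. The counts then were 1 member higher, 1 dimer partner higher, 3 MAP kinase genes higher and 0 lower (0 lower also at an unadjusted p under 0.05), 1 regulator higher and 3 lower, 3 immediate early genes higher, and 3 targets higher and 3 lower. With library totals alone, 4993 genes were higher and 3282 lower, 60.3% of calls higher against 48.9% with TMM, and relative to the median of all genes JUNB stood at 0.24. MAP kinase genes were then 11 higher and 0 lower, regulators 4 higher and 3 lower, and targets 9 higher and 3 lower. By limma on log2(FPKM + 1) and log2(FPKM + 0.1), 11 MAP kinase genes were higher, and in all 3 limma fits 1 was lower and 3 regulators were lower. With a minimum mean FPKM of 1, 6 immediate early genes were lower. With upper-quartile factors 1 MAP kinase gene was lower, and with no filter 1 regulator was higher. Of the 576 pairs of named list gene and alternative, 535 kept direction and call, 41 lost the call and 0 turned direction. The causes were not tested. FOSB and BATF are limited by their few reads.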
